A study of Mus musculus with 4 samples.

Results

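Transcripts of 40 genes that act in G2 and mitosis were examined in embryoid bodies, the aggregates in which embryonic stem cells start to differentiate. The genes are a list chosen by name for their role, drawn up with earlier results of these data known, and 39 of the 40 were measured, each by its brightest probe set carrying that single gene symbol, out of 22180 genes with such a probe set. Ccnb1, which encodes cyclin B1, had no probe set listed under its symbol alone and was not analysed here.

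The cells were R1, a mouse embryonic stem cell line, depleted of feeder cells and kept without the self-renewal cytokine LIF for 18 h. They received 1.88 µM GSK-J4, labelled as a specific inhibitor of the KDM6 histone demethylases, 1.88 µM GSK-J5, the control compound, DMSO, or EB medium alone. Each treatment has 1 array, so there is no spread between replicates, no difference below has a replicate check and no p-value is given. The GSK-J4 array enters every comparison, so the differences from the 3 controls are not independent of each other. The series title asks whether KDM6 inhibition elicits a DNA damage response in differentiating cells. Arrested entry into mitosis is a textbook part of such a response, but cell cycle stage was not measured on these arrays.

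Mitosis is started by CDK1 bound to cyclins A and B. Its onset is reinforced by the Polo and Aurora kinases, and it ends when the anaphase-promoting complex marks cyclin B and securin for destruction. Most of the genes involved are transcribed in waves that peak in G2 and mitosis. In mammals their promoters often carry CCAAT boxes, bound by NF-Y, and a cell cycle genes homology region (CHR), bound by MuvB complexes that activate them in G2 with B-MYB and FOXM1 and silence them in G0 and G1 as DREAM. Embryonic stem cells divide fast, with short gap phases. In bulk RNA, fewer cells in G2 and mitosis and less transcript per cell cannot be told apart.

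Promoter sequences are shown for 8 of the genes because most members read lower together on the GSK-J4 array and both motifs named above stood in 21 of the 33 members with a promoter in the table used. The sequences are from RefSeq (GRCm38.p6) and run 5′ to 3′ from 70 bases before to 30 bases after the transcript start. Capitals mark CHR letters (TTTGAA or TTCGAA) and CCAAT boxes on either strand, so that ATTGG and TTCAAA are the reverse complements. The first 6 belong to genes whose GSK-J4 value lay below all controls, Espl1 to a gene inside the range of the controls and Birc5 to a gene above them. Both motifs stand in the Espl1 window, and neither in that of Birc5. In Plk1 the CHR starts at base 31 of the transcript, just past the bases printed. They lie at chr7:122159365-122159464 (plus strand), chr10:69352883-69352982 (minus strand), chr2:164769859-164769958 (plus strand), chr4:118437314-118437413 (minus strand), chr19:37376312-37376411 (plus strand), chr15:99651627-99651726 (minus strand), chr15:102296223-102296322 (plus strand) and chr11:117849167-117849266 (plus strand).
Plk1: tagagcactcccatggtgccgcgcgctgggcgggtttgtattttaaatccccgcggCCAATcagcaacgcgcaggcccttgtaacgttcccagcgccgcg
Cdk1: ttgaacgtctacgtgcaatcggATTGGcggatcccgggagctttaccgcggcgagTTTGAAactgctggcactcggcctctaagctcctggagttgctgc
Ube2c: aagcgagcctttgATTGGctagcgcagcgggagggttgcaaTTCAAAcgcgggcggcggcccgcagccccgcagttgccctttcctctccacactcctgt
Cdc20: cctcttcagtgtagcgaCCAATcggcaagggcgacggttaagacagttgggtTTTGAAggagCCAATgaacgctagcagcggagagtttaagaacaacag
Kif11: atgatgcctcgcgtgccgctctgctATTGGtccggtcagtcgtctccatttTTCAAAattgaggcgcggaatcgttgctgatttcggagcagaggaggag
Racgap1: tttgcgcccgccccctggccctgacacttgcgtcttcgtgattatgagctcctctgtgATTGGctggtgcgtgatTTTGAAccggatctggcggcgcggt
Espl1: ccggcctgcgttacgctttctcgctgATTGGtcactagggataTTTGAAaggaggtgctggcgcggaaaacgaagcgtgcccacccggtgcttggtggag
Birc5: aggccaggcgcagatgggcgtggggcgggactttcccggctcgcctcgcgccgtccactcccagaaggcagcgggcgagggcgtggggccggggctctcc

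Nearly the whole group read lower in GSK-J4, by small amounts. Of the 39 genes, 33 (84.6%) lay below all 3 controls, against 35.5% of the 13308 genes that passed a filter on low values, and 3 lay above all of them, against 38.0%. The median log2 difference over the group was −0.16 from GSK-J5, −0.18 from DMSO and −0.19 from EB medium. Over all genes passing the filter these medians were 0.00, 0.01 and 0.00. All 39 passed the filter, which kept genes whose mean log2 value over the 4 arrays reached 6.59, with means of 8.42 to 13.02.

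The margin of a gene is how far its GSK-J4 value lies outside the range of the controls on the log2 scale, negative below the lowest, positive above the highest and 0 inside. By a rule of at least 1.2-fold (0.263 on the log2 scale) below the lowest control, 7 of the 39 genes were lower (17.9%), against 6.03% of all genes, and 0 were higher, against 9.74%. At 1.1-fold 21 were lower (15.6% of all genes) and 0 higher (19.7%), and at 1.5-fold 0 were lower (0.842%) and 0 higher (2.21%). The 7 were Plk1, Nusap1, Aurkb, Incenp, Bub1b, Pttg1 and Kif2c, with margins of −0.47 to −0.27. Taken against 1 control at a time, 36 of the 39 were lower than in GSK-J5 (48.2% of all genes), 34 than in DMSO (46.7%) and 35 than in EB medium (49.1%). By at least 1.2-fold, 8 were lower than in GSK-J5 (11.9%), 11 than in DMSO (12.1%) and 8 than in EB medium (11.2%). By that fold 0 were higher than in GSK-J5 (15.5%), DMSO (17.3%) or EB medium (13.4%).

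The 3 controls lay close together for these genes. The range from the lowest to the highest control had a median of 0.07 and reached 0.27 in Cdc25b. Over all genes passing the filter its median was 0.12. In 28 of the 39 genes GSK-J4 lay below the controls by more than this range, against 18.1% of all genes. The group was brighter, with a median mean log2 value of 11.52 against 9.03 over all genes, and the 18.1% was not matched for this. Medians between controls over the group were 0.00 for GSK-J5 minus DMSO, 0.01 for GSK-J5 minus EB medium and 0.02 for DMSO minus EB medium. Set against the other 3 arrays in the same way, the GSK-J5 array was lowest for 0 of the 39 genes (18.3% of all genes), the DMSO array for 3 (26.7%) and the EB medium array for 3 (14.4%). DMSO was the highest array for 15 of them (18.3% of all genes), GSK-J5 for 8 (17.6%) and EB medium for 7 (21.3%). By 1.2-fold, 0 genes of the group stood below or above the other 3 arrays on a control array. Of all genes, 0.361% stood below and 0.331% above in this way on the GSK-J5 array, 0.346% and 0.691% on the DMSO array, and 0.346% and 0.271% on the EB medium array.

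**Figure D1:**
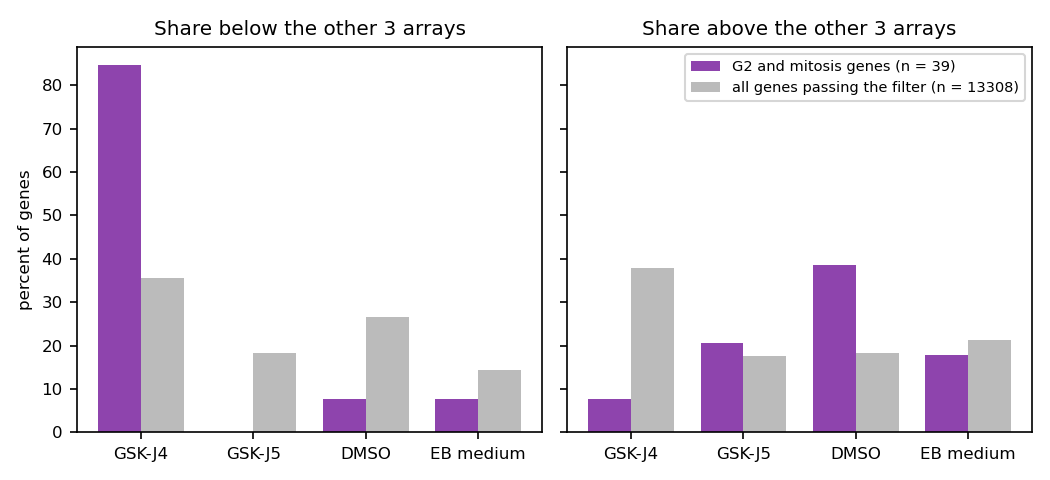
Percent of genes for which each array lay below (left) or above (right) the other 3 arrays by any amount, for the 39 G2 and mitosis genes (purple) and the 13308 genes passing the filter (grey), with arrays on the horizontal axis. The GSK-J4 array was lowest for 84.6% of the group, and no control array was lowest for more than 7.69% of it.

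Plk1 had the lowest margin of the 39 genes. Plk1, the Polo kinase that drives mitotic entry, centrosome maturation and cytokinesis, read 12.11 in GSK-J4, against 12.61 in GSK-J5, 12.63 in DMSO and 12.58 in EB medium. That is 1.39-fold below the nearest control, while the controls themselves spanned 0.05. Its promoter, the first sequence above, holds a CCAAT box 14 bases before the start. Aurkb, the Aurora kinase of the chromosomal passenger complex, read 11.43 in GSK-J4, against 11.83 in GSK-J5, 11.73 in DMSO and 11.80 in EB medium (margin −0.30). Aurka, the Aurora kinase of centrosomes and spindle poles, read 11.61 in GSK-J4, against 11.81, 11.90 and 11.85 in GSK-J5, DMSO and EB medium, a smaller margin of −0.20. Nek2, which separates centrosomes, had a margin of −0.08, within the range of 0.13 that its controls spanned.

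Partners of Aurora B in the passenger complex lay on opposite sides of the controls. Incenp, the scaffold that activates Aurora B, read 10.48 in GSK-J4, against 10.78 in GSK-J5, 10.90 in DMSO and 10.77 in EB medium (margin −0.29). Birc5, which encodes survivin, was on the other side at 10.42 in GSK-J4, against 10.34, 10.30 and 10.37 in GSK-J5, DMSO and EB medium, a margin of 0.05 that is smaller than the control range of 0.07. This kinase and passenger subgroup of 6 had 5 genes below all controls, 3 of them by 1.2-fold, and medians of −0.255 from GSK-J5, −0.295 from DMSO and −0.265 from EB medium. Taking all 8 protein kinase genes of the group together (Plk1, Aurka, Aurkb, Bub1, Bub1b, Cdk1, Ttk and Nek2), 7 lay below all controls and the median from GSK-J5 was −0.22.

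The subgroup of cyclins, CDK1 and its regulators had smaller median differences than the kinase and passenger subgroup, and the margins of single genes overlapped. Cdk1, the kinase at the centre of mitotic entry, read 12.13 in GSK-J4, against 12.36 in GSK-J5, 12.39 in DMSO and 12.36 in EB medium, which is 1.17-fold below the nearest control. Cks2, a small subunit that binds CDK1, had a margin of −0.19. It is the only gene of the group with several probe sets, of which 3 carry identical values and the other one had a margin of −0.21. Ccnb2, cyclin B2, read 12.33 in GSK-J4, against 12.45, 12.53 and 12.51 in GSK-J5, DMSO and EB medium, and Ccna2, cyclin A2, had a margin of −0.10. The CDC25 phosphatases, which remove the inhibitory phosphates from CDK1, hardly differed. Cdc25c had a margin of −0.03, and Cdc25b read 9.08 in GSK-J4, against 9.12 in GSK-J5, 9.06 in DMSO and 9.33 in EB medium, inside the controls, though below them after repeated quantile normalization (−0.088) and loess (−0.037). Of the 6 genes measured here 5 lay below all controls, 0 by 1.2-fold. Their medians were −0.125 from GSK-J5, −0.19 from DMSO and −0.19 from EB medium.

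Spindle checkpoint genes split. Bub1b, which encodes BUBR1 of the mitotic checkpoint complex, read 11.27 in GSK-J4, against 11.57 in GSK-J5, 11.54 in DMSO and 11.57 in EB medium (margin −0.27). Mad2l1, the MAD2 subunit that holds back CDC20, had a margin of −0.19, and Ttk, the MPS1 kinase that starts checkpoint signalling, of −0.09. Bub1, a kinase that recruits checkpoint proteins to kinetochores, lay inside the controls at 12.17 in GSK-J4, against 12.19, 12.25 and 12.15 in GSK-J5, DMSO and EB medium. The subgroup of 4 had a median of −0.165 from GSK-J5.

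Of the 4 kinetochore and centromere genes 3 lay below all controls, 0 by 1.2-fold, and 1 lay above. Their median was −0.135 from GSK-J5, −0.14 from DMSO and −0.145 from EB medium. Nuf2, a subunit of the NDC80 complex that binds microtubules, read 10.74 in GSK-J4, against 10.90, 11.00 and 10.96 in GSK-J5, DMSO and EB medium. Ndc80, the partner of Nuf2 in that complex, lay above all controls at 11.27 in GSK-J4, against 11.18, 11.24 and 11.15, with a margin of 0.03. Cenpa, the histone H3 variant of centromeres, and Cenpf, a large protein of the outer kinetochore, had margins of −0.14 and −0.12, both larger than the 0.02 that their controls spanned.

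Of the 7 kinesin genes, 6 lay below all controls and 1 by 1.2-fold. Kif2c, which encodes MCAK, a kinesin that takes microtubules apart at centromeres, read 11.23 in GSK-J4, against 11.62 in GSK-J5, 11.50 in DMSO and 11.57 in EB medium (margin −0.27). Kif20a, a cytokinesis kinesin, had a margin of −0.17, and Kif20b, its relative, one of −0.16 beside a control range of 0.24. For Kif11, the plus-end motor that pushes spindle poles apart, the controls spanned 0.01 and the margin was −0.15. Kif4, the chromokinesin, had a margin of −0.11. Kif23, the motor of centralspindlin, read 11.51 in GSK-J4, against 11.52 in GSK-J5, a difference of 1 unit in the last deposited decimal. Cenpe, the kinesin that moves chromosomes to the spindle equator, lay just above all controls at 11.08 in GSK-J4, against 11.06, 11.06 and 11.05 in GSK-J5, DMSO and EB medium.

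All 4 spindle assembly genes lay below all controls. Nusap1, which encodes a microtubule-bundling protein, read 10.63 in GSK-J4, against 11.03 in GSK-J5, 11.11 in DMSO and 10.98 in EB medium, the second-lowest margin of the group at −0.35. Tpx2, the activator of Aurora A on spindle microtubules, and Prc1, which cross-links the central spindle, both had a margin of −0.20. Hmmr, a microtubule-associated protein of the spindle, had one of −0.08. The 3 cytokinesis genes lay below all controls as well. Racgap1, the GTPase-activating subunit of centralspindlin, read 11.74 in GSK-J4, against 12.00, 11.96 and 12.02 in GSK-J5, DMSO and EB medium. Anln, the contractile ring scaffold anillin, had a margin of −0.12 and Ect2, the RhoA exchange factor of the cleavage furrow, of −0.07. Top2a, the topoisomerase that untangles sister chromatids, had a margin of −0.09.

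Among genes of anaphase onset, Pttg1 and Ube2c were the lowest. Pttg1, which encodes securin, read 8.21 in GSK-J4, against 8.48 in GSK-J5, 8.50 in DMSO and 8.50 in EB medium (margin −0.27). Ube2c, the ubiquitin-conjugating enzyme of the anaphase-promoting complex, read 11.99 in GSK-J4, against 12.27, 12.27 and 12.23 in GSK-J5, DMSO and EB medium, and Cdc20, an activator of the complex, had a margin of −0.17. Espl1, which encodes separase, the protease that securin holds in check, lay inside the controls at 10.98 in GSK-J4, against 11.10 in GSK-J5, 10.97 in DMSO and 11.11 in EB medium. Espl1 was inside by 1 unit in the last deposited decimal over DMSO, and without the DMSO array its margin was −0.12. Transcripts of securin and of its partner separase thus differed in position only through the DMSO array.

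**Figure D2:**
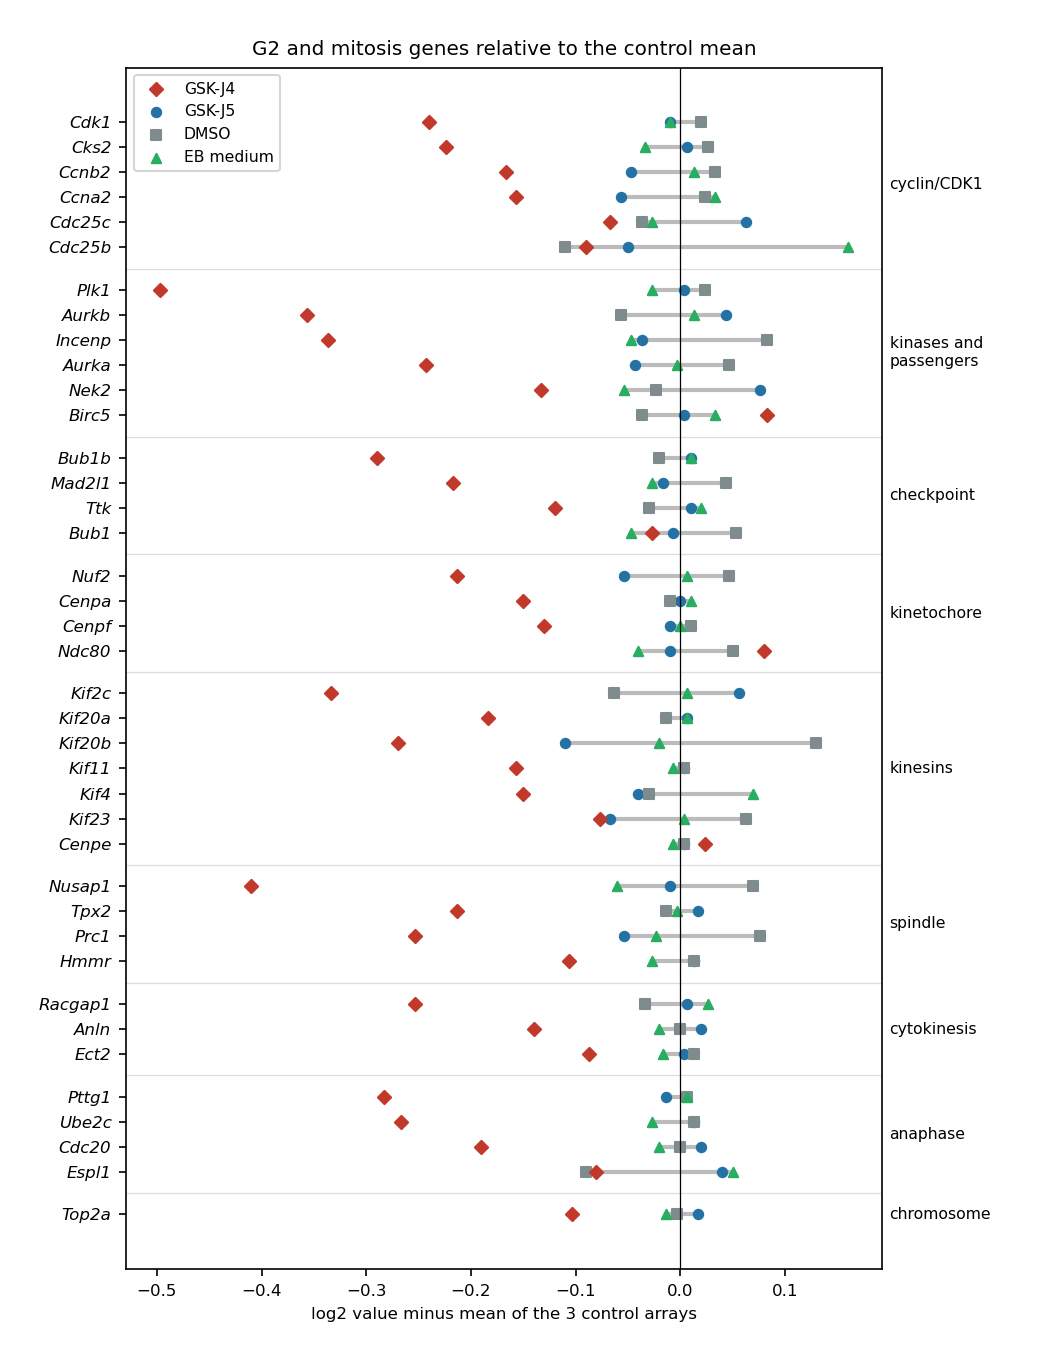
Log2 value of each of the 39 genes on each array minus the mean of its 3 control arrays, by functional subgroup. Grey bars join the lowest and highest control, and red diamonds are the GSK-J4 array. The diamonds lie left of the grey bar for 33 genes, farthest for Plk1 and Nusap1, and right of it for Birc5, Ndc80 and Cenpe.

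The 2 promoter motifs were common in the group, and members with and without them lay below all controls. Of the 39 genes, 33 had a RefSeq promoter, a window from 250 bases before to 50 after the transcript start. Ccna2, Aurkb, Kif20a, Cdc25c, Tpx2 and Incenp had none, and of these Aurkb and Incenp were past 1.2-fold. CHR letters stood in 25 of the 33 (75.8%), against 21.7% of the 27025 genes with a promoter in that table, and a CCAAT box in 24 (72.7%), against 41.1%. Both motifs stood in 21 (63.6%), against 8.61%. The CHR was close to the start, its first base within 40 bases of it, in 23 members (69.7%), against 5.20% of all genes. A match to these letters is a description and not a shown binding site. The 25 members holding CHR letters had a median GSK-J4 minus GSK-J5 difference of −0.15, and the 8 without them −0.205, with 21 of 25 and 6 of 8 below all controls. From DMSO these medians were −0.14 and −0.255, and from EB medium −0.17 and −0.19. For a CHR within 40 bases of the start, the medians from GSK-J5 were −0.13 in the 23 holders and −0.22 in the 10 others. With so few genes and 1 array, whether the motifs relate to the size of difference was not tested. Nusap1 and Pttg1, both past 1.2-fold, had neither motif in the window, like Birc5, while Espl1, Bub1 and Cdc25b had both and lay inside the controls.

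**Figure D3:**
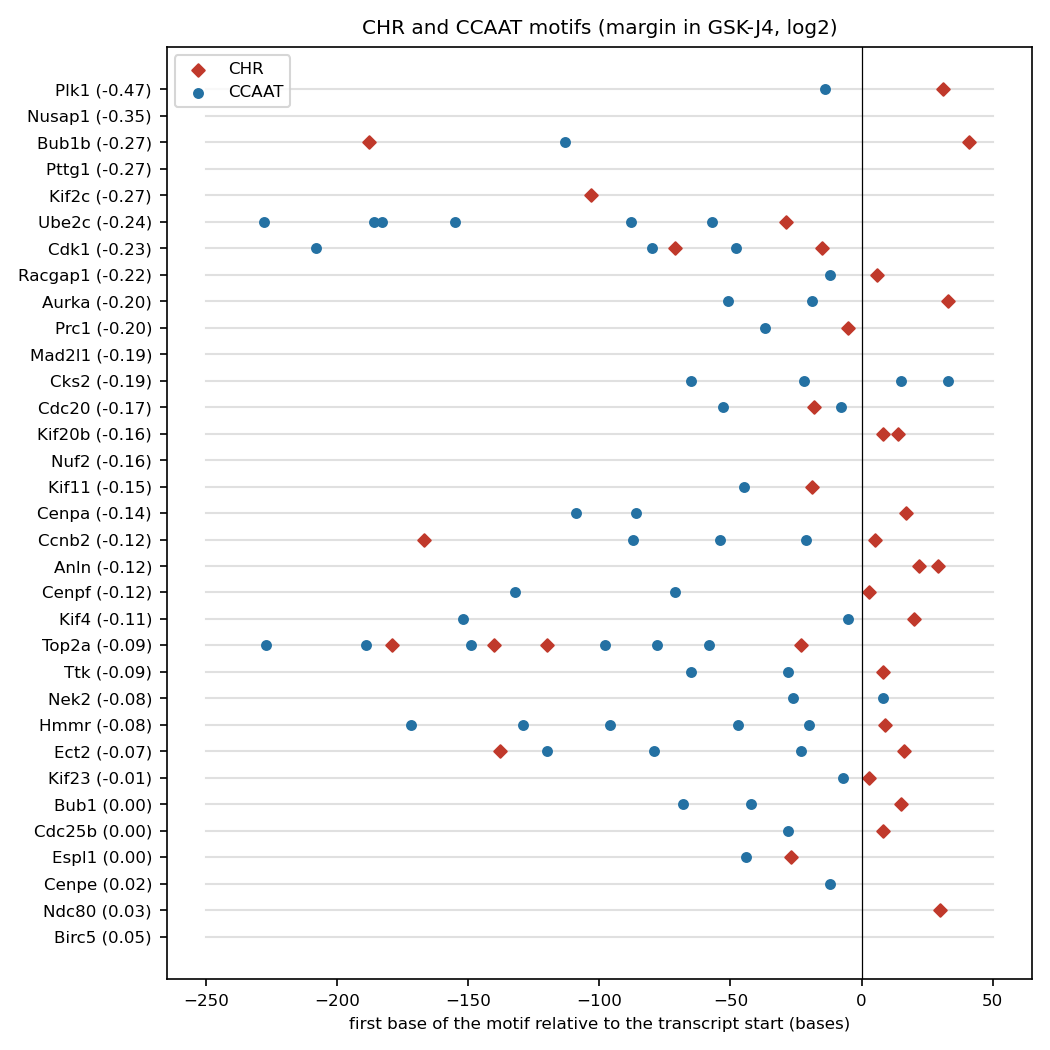
First base of each CHR (red diamonds) and CCAAT (blue circles) match relative to the transcript start, in bases, for the 33 members with a RefSeq promoter, 1 window per gene, ordered from the lowest margin (in parentheses, log2) at the top. CHR matches gather near the start, and rows with and without them are found from Plk1 (−0.47) down to Birc5 (0.05).

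Other genes of the same processes were taken from 6 lists fixed by function, with 137 of 147 genes measured. The shift was smaller over these genes: 60 (43.8%) lay below all controls and 46 (33.6%) above, against 35.5% and 38.0% of all genes, and the median from GSK-J5 was −0.03. By 1.2-fold 7 were lower (5.11%) and 13 higher (9.49%), close to the 6.03% and 9.74% of all genes. Genes of the spindle, centrosome and cytokinesis had 5 of 40 (12.5%) lower and 3 (7.5%) higher by 1.2-fold, with a median of −0.055. Gas2l3, a cytoskeletal linker of cytokinesis (margin −0.46), Cdkn3, a phosphatase acting on CDKs (−0.44), and Pbk, a mitotic kinase (−0.38), were the lowest. The other lower genes, named after their values were seen, were Pimreg (−0.34) and the kinesin gene Kif14 (−0.27). Psrc1, a spindle protein (0.57), Kif18b, a depolymerising kinesin (0.37), and Haus2, an augmin subunit (0.33), were the highest. Among 34 further kinetochore, centromere and checkpoint genes 0 were lower and 4 (11.8%) higher by 1.2-fold, a share higher that is close to the 9.74% of all genes. They were led by Cenpt, a centromere protein that recruits the NDC80 complex (0.45), Dsn1 of the MIS12 complex (0.32) and Zwilch of the checkpoint complex RZZ (0.30). The fourth, named after its value was seen, was Kntc1 of the same complex (0.27). By any amount 11 of the 34 (32.4%) lay below all controls and 15 (44.1%) above. The median of the 34 was 0.025, with a sign that turned under quantile normalization (−0.042) and loess (−0.018).

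Of 17 anaphase-promoting complex subunits and regulators, 10 (58.8%) lay below all controls and 6 (35.3%) above, against 35.5% and 38.0% of all genes. By 1.2-fold 2 were lower (11.8%, against 6.03%), Anapc13 (−0.35) and Anapc10 (−0.27), and 1 higher (5.88%, against 9.74%), Anapc16 (0.42). In a list of this size the counts by 1.2-fold are near those of all genes. None of 17 condensin and cohesin list genes passed 1.2-fold, against 6.03% of all genes lower and 9.74% higher. By any amount 9 of them (52.9%) lay below all controls and 4 (23.5%) above. On that list Ncapd2, a condensin subunit, differed from GSK-J5 by −0.29, and Mki67, the Ki-67 proliferation marker, read 11.78 in GSK-J4, against 11.99, 12.00 and 11.98 in GSK-J5, DMSO and EB medium. DNA replication genes peak earlier in the cycle. Of 39 measured, 21 (53.8%) lay below all controls and 9 (23.1%) above, against 35.5% and 38.0% of all genes. The median of this list from GSK-J5 was −0.05. By 1.2-fold 3 were lower (7.69%), near the 6.03% of all genes, and 0 higher, against 9.74%. The 3 were Tk1, thymidine kinase (−0.48), Cdc6, a licensing factor (−0.31), and Ccne1, cyclin E1 (−0.31).

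Of 17 genes that regulate this transcription, 0 were lower by 1.2-fold (6.03% of all genes) and 3 were higher (17.6%, against 9.74% of all genes). All 3 also lay above all controls by at least 1.5-fold, as did 2.21% of all genes. The list is short, no test was run on it, and the genes are given for their values. By any amount 5 of the 17 (29.4%) lay below all controls and 6 (35.3%) above, against 35.5% and 38.0% of all genes. Rbl2, which encodes p130, a pocket protein of DREAM, read 9.48 in GSK-J4, against 8.63 in GSK-J5, 8.50 in DMSO and 8.62 in EB medium. That is 1.80-fold above the nearest control. Named after their values were seen, Rbl1 lay inside the controls at 9.83 in GSK-J4, against 9.82, 9.83 and 9.96, and E2f4 (−0.09) and E2f5 (−0.11) below them. Rb1, the retinoblastoma protein gene, had a margin of 0.84 and Mybl1, which encodes A-MYB, of 0.81. Neither of the activators named above read lower. Foxm1 read 10.39 in GSK-J4, against 10.12, 10.18 and 10.22 in GSK-J5, DMSO and EB medium, and Mybl2, which encodes B-MYB, had a margin of 0.03.

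Of 12 brakes on mitotic entry, 2 were higher by 1.2-fold (16.7%, against 9.74% of all genes) and 0 lower (6.03% of all genes). The 2 higher genes also passed 1.5-fold, as did 2.21% of all genes. The list is short and no test was run on it. Cdkn1a, the p21 inhibitor of cyclin-dependent kinases, had a margin of 1.03, and Ccng1, cyclin G1, of 0.66. Both are known p53 targets, as are Sfn and Rprm of the same list, given below. Of the 12, 5 lay below all controls by any amount and 6 above, against 35.5% and 38.0% of all genes. The median of the list from GSK-J5 was 0.03. Named after their values were seen, Gadd45g (−0.23) and Sfn (−0.04) lay below the controls, Gadd45b inside them and Rprm (0.08) above. The part of p53 in the values of this list was not tested. Wee1, the kinase that places the inhibitory phosphate on CDK1, read 11.47 in GSK-J4, against 11.73, 11.75 and 11.74 in GSK-J5, DMSO and EB medium, below all controls like most of the mitotic genes (margin −0.26). Gadd45a shares its probe set with another symbol and was not analysed here. Protein activity and cell cycle stage were not measured, and the part of these regulators in the lower mitotic transcripts was not tested.

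**Figure D4:**
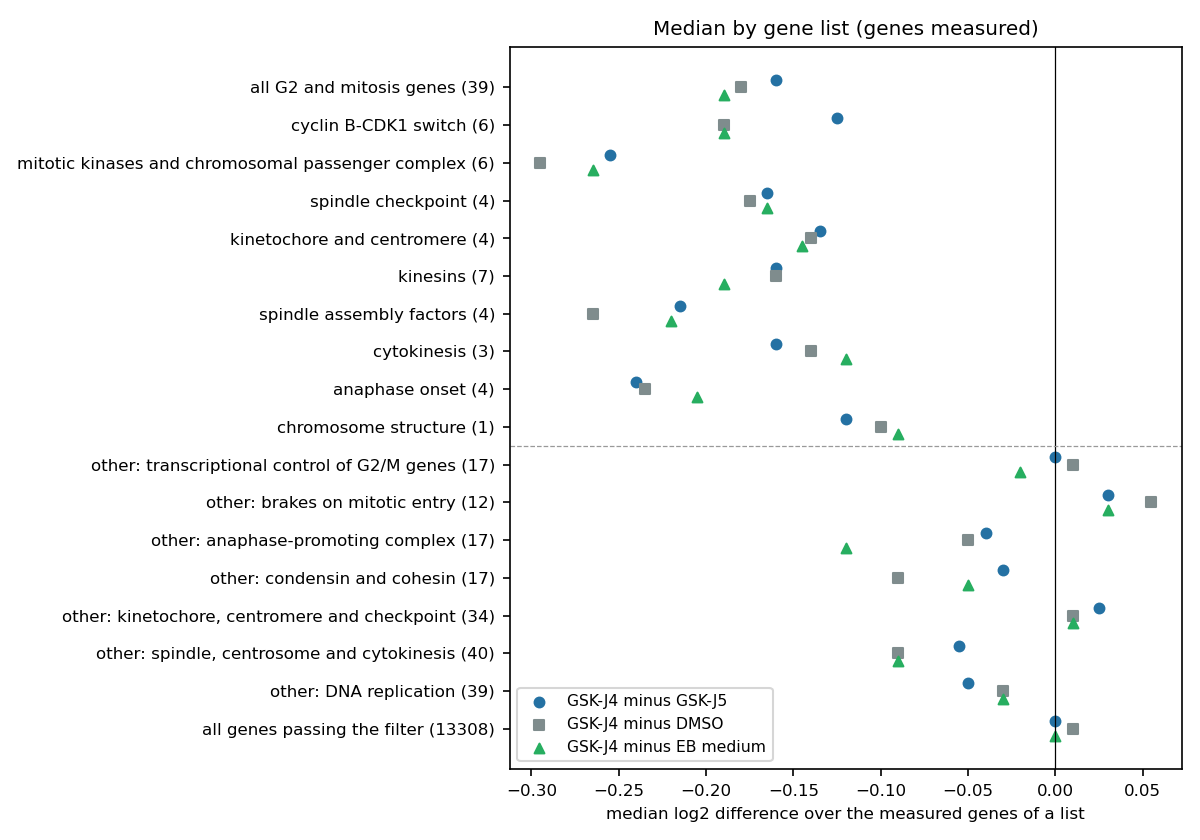
Median log2 difference of GSK-J4 from GSK-J5 (circles), DMSO (squares) and EB medium (triangles) over the measured genes of each list, with the number of genes in parentheses. The subgroups of the 39 genes, above the dashed line, lie between −0.295 and −0.09, and the other lists and all genes between −0.12 and 0.055.

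Markers of the labelled cells read above the filter level of 6.59 on every array, though detection above background could not be examined. All 11 embryonic stem cell and epiblast genes passed the filter. Of these, 7 lay below all controls in GSK-J4 and 2 above, against 35.5% and 38.0% of all genes passing the filter. Nanog read 13.05 in GSK-J4, against 13.11, 13.20 and 13.14 in GSK-J5, DMSO and EB medium. The epiblast genes Fgf5 (margin −1.43) and Otx2 (−0.31) and the Nodal co-receptor gene Tdgf1 (−0.36) lay lower, and the part of cell state in the lower mitotic values was not tested. Of 11 feeder fibroblast genes measured, 5 passed the filter. With or without passing it, 6 of the 11 lay below all controls and 1 above. Without a filter, 36.3% of all genes lay below and 30.6% above. The mean of the list was 6.76 in GSK-J4, against 6.92, 6.96 and 6.91. The part of the feeder level in the lower mitotic values was not tested. Of 4 endothelial and blood genes only Pecam1, which embryonic stem cells also express, passed the filter. Ptprc, the pan-leukocyte marker, read 4.49 in GSK-J4, against 4.51, 4.38 and 4.37.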

How the data were processed

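Per the labels, 100 ng of total RNA per sample went into amplification and biotin labelling for an Affymetrix array. Per the submitters' processing notes, the authors ran RMA (background correction, quantile normalization and probe set summary) in Expression Console, version 1.2.1.20, and the deposited values, rounded to 2 decimals, were taken as log2. No source states the base, and the span of 2.20 to 14.48 led to this choice. Scanner files were not analysed here, so detection above background and saturation could not be examined.

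Array medians were 6.63 to 6.65 over 41345 probe sets. Platform annotation listed genes for 25335 of them, 23521 with a single symbol. Where a gene had several probe sets the brightest on average over the 4 arrays was used, giving 22180 genes, of which 13308 had a mean at or above the 40th percentile. RefSeq (GRCm38.p6) tables served for synonyms and promoters. Motifs were searched as exact letters on both strands.

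The members, lists, size rules and the naming of other genes (up to 3 per direction and list past 1.2-fold, otherwise the 2 farthest from GSK-J5, plus Cdkn1a, Foxm1, Mybl2 and Wee1) were chosen with earlier results of these data known, including that no mitotic gene passed 1.5-fold. With 1 array per treatment no test was run. Alternatives were other filters, folds, scalings and probe set rules, and leaving out each control. Python 3.11.15 with pandas 2.3.3 and statsmodels 0.14.6 was used.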

Additional observations from a re-analysis of the deposited data

How the results depend on the processing

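The count of 33 genes below all controls stayed between 30 and 35 under no filter, filters at the 60th and 80th percentiles, median centring, repeated quantile normalization, loess, the median over probe sets, and leaving out each control. The 30 is for the 80th percentile filter, added after seeing the data, which kept 35 members and where 41.8% of 4436 genes lay below. The count lower by 1.2-fold ranged from 5 to 8. Pttg1 fell just short under median centring (margin −0.26), as did Bub1b (−0.256) and Kif2c (−0.257) under loess, and Ube2c passed without the EB medium array (−0.28). At 1.1-fold the count lower was 21 and at 1.5-fold 0. The median from EB medium was −0.168 under quantile normalization and −0.152 under loess, and that from DMSO −0.151 under loess. The cause of these shifts was not tested. The median of the kinetochore, centromere and checkpoint list turned to −0.042 under quantile normalization and −0.018 under loess. Cdc25b lay below all controls under quantile normalization (−0.088) and loess (−0.037), and Kif23 inside them under median centring and loess. Espl1 and Cdc25b lay below the remaining controls without the DMSO array, and Bub1 without the EB medium array. No paired analysis was possible because each treatment has 1 array and the labels give no replicate numbers. One array per treatment limits the precision, and the size of a difference that replicate arrays would give is unknown.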

Other observations

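Outside the 39 G2 and mitosis genes, 161 genes that passed the filter had a RefSeq promoter with a CCAAT box and CHR letters within 40 bases of the start. Of these, 73 (45.3%) lay below all 3 controls in GSK-J4 and 59 (36.6%) above, and their median difference was −0.04 from GSK-J5, −0.01 from DMSO and −0.05 from EB medium. Among the 10259 other genes with a promoter and past the filter, 34.6% lay below all controls and 39.2% above, with medians of 0.01, 0.02 and 0.00. This comparison was chosen after the members' promoters were seen and is given as a description.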
